A study of Homo sapiens with 6 samples.

Results

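The 10 genes described here encode the proteins that take the cap off an mRNA and then degrade it from the 5′ end. They were chosen by symbol from the deposited count table: DCP1A, DCP1B, DCP2, EDC3, EDC4, DDX6, LSM14A, XRN1, XRN2 and PATL1. All 10 were among the 30493 genes listed, and all 10 were among the 17089 genes with enough counts to be tested. The study compared bead-captured mRNA of A549, a human lung adenocarcinoma cell line, between 3 libraries labelled as carrying a control plasmid and 3 labelled as STAU1 knockdown. STAU1 encodes Staufen 1, a double-stranded RNA-binding protein that can direct bound mRNAs to decay. All 6 libraries come from this 1 cell line, and the sources used here name neither the knockdown reagent nor the time after it was given. The knockdown titles carry the prefix si while the controls are labelled as plasmid, so whether the control matches the knockdown reagent in kind is not known, and a difference between the groups cannot be told apart from one between reagents. They also do not state that replicates were separate cultures, so the spread between replicates may be technical.

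In cells, decapping follows removal of the poly(A) tail. The Nudix hydrolase DCP2 cuts the cap, and DCP1A or its paralog DCP1B binds DCP2 and stimulates it. EDC3 and EDC4 are enhancers that hold the complex together, while the DEAD-box helicase DDX6, the scaffold PATL1 and the RNA-binding protein LSM14A link repressed mRNA to decapping. Many of these proteins gather in cytoplasmic granules called processing bodies. Once the cap is gone, XRN1 degrades the body of the mRNA in the cytoplasm, whereas XRN2 is the nuclear 5′ to 3′ exonuclease and acts in transcription termination and RNA processing. 

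The catalytic centre of decapping lies in the Nudix box of DCP2, the gene with the largest difference of the 10. Its coding sequence is shown here to place the enzyme that the results turn on. It covers codons 129 to 151 in the principal GENCODE 29 transcript and lies in 2 exon pieces on the plus strand of GRCh38, chr5:112992723-112992770 and chr5:113001084-113001104. The capitals mark the 7 codons that the Nudix pattern fixes.
DCP2 Nudix box: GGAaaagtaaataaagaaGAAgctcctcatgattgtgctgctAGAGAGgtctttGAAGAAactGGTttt

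DCP1A and DCP1B are paralogs whose differences had opposite signs, so whether reads could be confused between them matters for what follows. Their coding sequences were identical at 63.5% of 1647 aligned bases, and the longest stretch they share without a difference was 16 bases. The same limit of 16 bases held over all annotated transcripts of both genes, against reads of 150 nt. The 60-base windows around that stretch are given here with the shared bases in capitals. They lie at chr3:53347426-53347485 and chr12:2004325-2004384, both on the minus strand, and were identical at 47 of 60 positions.
DCP1A: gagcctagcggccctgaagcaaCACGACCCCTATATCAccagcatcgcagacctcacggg
DCP1B: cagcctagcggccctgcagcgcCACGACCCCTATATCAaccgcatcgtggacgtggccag

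The other pairs of paralogs also shared no stretch as long as a read. The longest identical coding stretch was 18 bases between XRN1 and XRN2, 30 bases between LSM14A and LSM14B, and 12 bases between PATL1 and PATL2. A search of the principal transcript of each gene against all GENCODE 29 transcripts, at 95% identity over at least 150 bases, found no processed copy of any of the 10. It found only overlapping neighbours of EDC3, EDC4 and XRN2, which are taken up with those genes.

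Promoters are shown for the 2 genes that rose and for DCP1A, which fell, because these genes differ in direction. Each window runs from 250 bases before to 50 bases after the RefSeq start in GRCh38.p14. The capitals mark the CCAAT box (CCAAT) and the GC box (GGGCGG), searched on both strands, so that ATTGG and CCGCCC are also in capitals. The windows are chr5:112976548-112976847 (plus strand) for DCP2, chr11:59668988-59669287 (minus strand) for PATL1 and chr3:53347494-53347793 (minus strand) for DCP1A.
DCP2: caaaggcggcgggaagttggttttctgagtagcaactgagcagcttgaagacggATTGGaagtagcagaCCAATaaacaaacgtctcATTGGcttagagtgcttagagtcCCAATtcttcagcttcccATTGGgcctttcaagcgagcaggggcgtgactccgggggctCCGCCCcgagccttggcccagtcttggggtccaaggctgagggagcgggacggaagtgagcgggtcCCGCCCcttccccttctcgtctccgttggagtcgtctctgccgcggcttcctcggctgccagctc
PATL1: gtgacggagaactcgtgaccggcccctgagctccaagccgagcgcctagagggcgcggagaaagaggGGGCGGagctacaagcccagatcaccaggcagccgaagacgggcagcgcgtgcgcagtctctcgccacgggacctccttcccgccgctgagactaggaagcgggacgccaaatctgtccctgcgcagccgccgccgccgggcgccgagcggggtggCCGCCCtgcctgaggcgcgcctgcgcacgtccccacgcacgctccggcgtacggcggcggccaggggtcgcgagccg
DCP1A: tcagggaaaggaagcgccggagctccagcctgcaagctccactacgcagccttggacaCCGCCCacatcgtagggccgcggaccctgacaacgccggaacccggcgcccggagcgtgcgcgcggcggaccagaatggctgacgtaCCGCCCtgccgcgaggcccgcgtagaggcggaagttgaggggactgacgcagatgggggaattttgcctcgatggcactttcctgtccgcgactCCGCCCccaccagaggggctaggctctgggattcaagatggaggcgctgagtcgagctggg

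The DCP2 window held 5 CCAAT boxes, 2 in the forward and 3 in the reverse direction, and 2 GC boxes. Among 35116 RefSeq windows of the same length 34.6% held at least 1 CCAAT box and 126 (0.359%) held 5 or more. PATL1 and DCP1A held no CCAAT box and had 2 and 3 GC boxes, a motif present in 45.0% of windows. Of the 7 genes with a single start in the table, DCP2 was the 1 with a CCAAT box, and 6 had a GC box, all but EDC3. The ETS core CCGGAAG occurred in 3 of the 7 (DCP1B, EDC3 and EDC4), against 10.3% of windows. The E-box CACGTG (7.26% of windows), the TATA box TATAAA (11.5%) and the NRF1 half-site GCATGCGC (3.05%) occurred in 0 of the 7. GC content was 60% for DCP2, 67.3% for DCP1A and 73.7% for PATL1, against a median of 58.7%. These matches describe the letters in the windows and do not show that a factor binds there. Whether they go with the direction of change was not tested.

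STAU1 itself stood at 12.8% of its control level in the knockdown libraries, 15.4 ± 0.732 against 121 ± 3.71 CPM (counts scaled to library size, SD, n = 3 each), as the labels give it. Libraries held 30354219 to 35431441 counts, and the 10 genes had between 233 (DCP1B) and 6216 (LSM14A) counts in a library. Mitochondrially encoded genes took 17.3% to 17.9% of control counts and 15.8% to 16.1% of knockdown counts. All 8 epithelial and A549 markers listed were present, but 3 rose and 4 fell. The keratin genes KRT8 and KRT18 fell from 4371 ± 60.9 to 3328 ± 50.9 CPM and from 4128 ± 63.0 to 3028 ± 53.1 CPM. The adhesion genes CDH1 and EPCAM rose from 86.2 ± 2.06 to 122 ± 3.28 CPM and from 39.1 ± 1.25 to 45.6 ± 0.326 CPM, and the part of these changes in the results below was not tested. Lung lineage markers were low: the deposited FPKM (fragments scaled to gene length and library size) of 4 of them summed to 0.89 to 1.1 in controls and 0.5 to 0.55 in knockdown libraries, with SFTPC at 0.1496 CPM in controls and SFTPB at 2.24 CPM in controls and 0 in all 3 knockdown libraries. Of 10 markers of other cells 6 had counts and 4 were tested, and their FPKM summed to 8.19 to 8.45 in control and 11.6 to 12.9 in knockdown libraries. The other 4 were not analysed here. CD14 (12.7 to 15.9 CPM), LUM (6.05 to 9.91) and CDH5 (0.802 to 1.64) rose among them, PECAM1 was not called and stood at 0.312 CPM in controls, and the part of this in the results below was not tested. In bulk RNA, fewer cells with a transcript and less of it per cell cannot be told apart.

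Across all tested genes 44.1% were called at an adjusted p under 0.05, 22.2% higher and 21.9% lower in knockdown libraries. Calls rest on TMM scaling, edgeR's quasi-likelihood test and Benjamini-Hochberg adjusted p-values over every tested gene. Adjusted p-values are from this test unless another is named. Of the 10 decapping and 5′ to 3′ decay genes 2 rose (DCP2 and PATL1), 4 fell (DCP1A, EDC4, DDX6 and LSM14A) while 4 did not pass (DCP1B, EDC3, XRN1 and XRN2). Their median log2 fold change was 0.0145, against -0.00019 over all tested genes. The CPM of the groups did not overlap for 7 of the 10, against 51.4% of all tested genes. The 6 called of 10 are to be read against the 44.1% called over all genes, and no test set the 10 apart from the rest. The scaling bears on these counts: 50.3% of all calls were higher with TMM, but 69.5% with total-count scaling and 77.3% and 77.2% on log2(FPKM + 1) and log2(FPKM + 0.1). For the 10 genes, the 2 higher and 4 lower calls became 4 and 1 with total-count scaling and 4 and 0 on either FPKM scale.

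**Figure D1:**
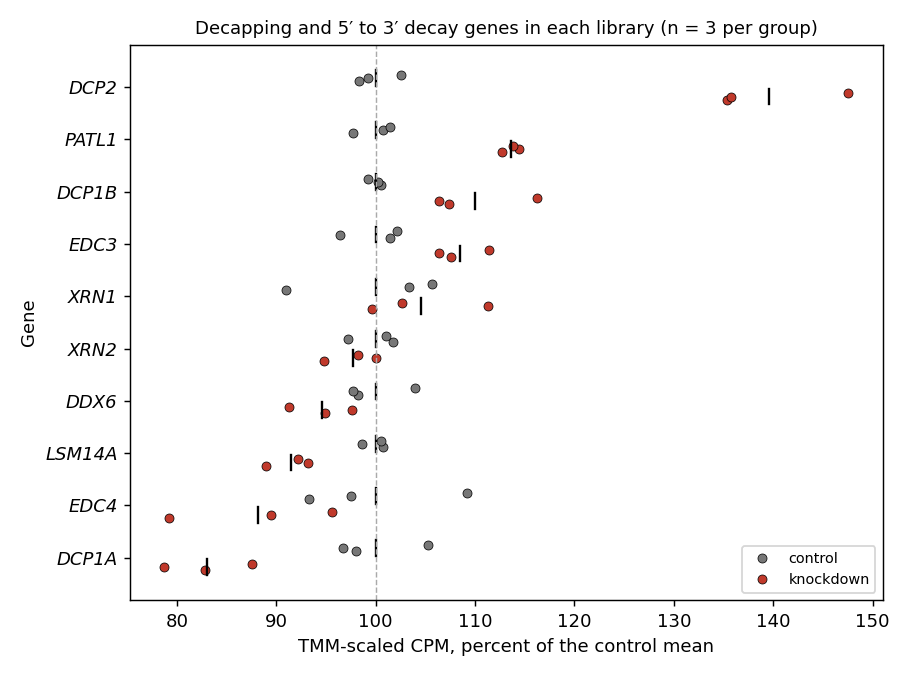
TMM-scaled CPM of the 10 genes in each library, as percent of the gene's control mean; points are libraries (grey control, red knockdown), vertical lines are group means (n = 3). The 3 knockdown points of DCP2 lie far to the right of its controls, at 30.1 to 32.8 CPM against 21.8 to 22.8, while XRN1 and XRN2 overlap.

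DCP2, the decapping enzyme, had the largest change of the 10. It was at 21.8, 22.03 and 22.8 CPM in control replicates 1 to 3 and at 30.1, 30.1 and 32.8 CPM in knockdown replicates 1 to 3. Every knockdown library was above every control. The group means were 22.2 ± 0.495 and 31.0 ± 1.54 CPM, a rise of 1.40-fold (log2 fold change 0.48, SE 0.050, adjusted p = 5.32e-10). This change ranked at the 92.6th percentile of all fitted log2 fold changes. DCP2 (ENSG00000172795.17) lies on the plus strand at chr5:112976702-113020970, and no other annotated gene overlaps it. The rise was called in all 19 alternative settings, with log2 fold changes from 0.39 to 0.56.

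The subunits that activate DCP2 did not rise with it in this test. DCP1A was at 13.0, 12.8 and 13.9 CPM in controls and at 11.0, 10.4 and 11.6 CPM in knockdown libraries, with no overlap. It fell from 13.2 ± 0.607 to 11.0 ± 0.583 CPM (log2 fold change -0.27, SE 0.070, adjusted p = 0.00205). On the FPKM scales its values kept the sign but were no longer called (-0.097 and -0.15, adjusted p = 0.129 and 0.13 in limma). The paralog DCP1B was at 7.64, 7.61 and 7.54 CPM in controls and at 8.15, 8.08 and 8.83 CPM in knockdown libraries. These groups also did not overlap, in the opposite direction, but the difference was not called (log2 fold change 0.14, SE 0.084, adjusted p = 0.18). DCP1B passed with total-count scaling (0.22, adjusted p = 0.0312) and on the 2 FPKM scales (adjusted p = 0.0272 and 0.0267 in limma). DCP1A (ENSG00000272886.6) lies at chr3:53283428-53347610 and DCP1B (ENSG00000151065.14) at chr12:1946054-2004535, and neither shares annotated exon bases with another gene.

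Ratios of 2 counts within a library do not depend on the scaling between libraries. The log2 ratio of DCP2 over DCP1A was 0.75, 0.78 and 0.71 in controls and 1.45, 1.53 and 1.499 in knockdown libraries. Its mean went from 0.75 ± 0.037 to 1.49 ± 0.038, a 1.68-fold difference, with no overlap of the groups. Per gene length, DCP2 stood at 0.901 ± 0.0233 times the FPKM of DCP1A in controls and at 1.51 ± 0.0401 times in knockdown libraries. DCP1B over DCP1A went from -0.77, -0.75 and -0.89 to -0.43, -0.37 and -0.39 on the log2 count scale, a difference of 0.40. In FPKM, DCP1B was 0.760 ± 0.0383 times DCP1A in controls and 1.00 ± 0.0207 times in knockdown libraries. DCP2 over the scaffold gene EDC4 differed by 0.66. Of 6 such ratios 5 separated the groups without overlap, each with an exact two-sided permutation p = 0.1 (adjusted 0.12). This is the smallest p that 3 against 3 libraries can give before adjustment. No share over all gene pairs was computed, and 51.4% of single tested genes already did not overlap. DCP2 over DCP1A, DCP2 over EDC4 and LSM14A over PATL1 each join a gene called higher with one called lower.

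**Figure D2:**
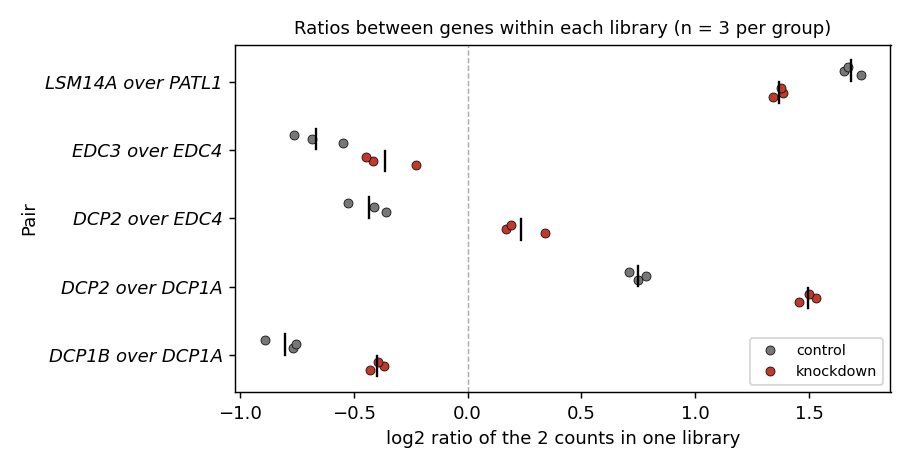
Log2 ratio of the counts of 2 genes in one library, for 5 of the 6 pairs; points are libraries (grey control, red knockdown) and vertical lines are group means (n = 3). DCP2 over EDC4 lies below 0 in the 3 controls (mean -0.43) and above 0 in the 3 knockdown libraries (mean 0.23).

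The 2 enhancers of decapping differed in sign. EDC3, which bridges DCP2 and DDX6, was at 19.2, 18.2 and 19.3 CPM in controls and at 20.3, 20.1 and 21.1 CPM in knockdown libraries. All knockdown values were above the controls, but the difference was not called (log2 fold change 0.12, SE 0.055, adjusted p = 0.08). It was called with total-count scaling (0.19, adjusted p = 0.00328) and on log2(FPKM + 0.1) (0.22, adjusted p = 0.00939 in limma). EDC3 (ENSG00000179151.13, chr15:74630558-74696292, minus strand) shares 701 annotated exon bases with CLK3 on the opposite strand, which had 5425 counts over the 6 libraries against 3807 for EDC3. The strand setting of the counting is not given, so reads from that stretch may count for either gene.

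EDC4, the large scaffold that joins DCP1 and DCP2, was at 28.0, 29.2 and 32.7 CPM in controls and at 23.8, 26.8 and 28.7 CPM in knockdown libraries. The groups overlapped, since the highest knockdown library exceeded the lowest control. It fell from 29.99 ± 2.47 to 26.4 ± 2.48 CPM (log2 fold change -0.18, SE 0.069, adjusted p = 0.0463), close to the threshold. Leaving out control replicate 2, control replicate 3, knockdown replicate 1 or knockdown replicate 2 ended the call (adjusted p = 0.0925, 0.181, 0.148 and 0.155), and the log2 fold change was -0.11 without control replicate 3 and -0.11 without knockdown replicate 1. It also ended with total-count scaling, without a filter on low counts and on both FPKM scales (adjusted p = 0.213, 0.0988, 0.56 and 0.556, the last 2 in limma). Of the 19 alternatives 8 thus ended the call and 11 kept it. With the replicate number as a block the log2 fold change was -0.18 (edgeR adjusted p = 0.00165). The call was thus made with and without that number, but lay close to the threshold only without it. EDC4 (ENSG00000038358.15, chr16:67873023-67884503, plus strand) shares 1311 exon bases with the lincRNA AC040162.3 on the same strand, which had 104 counts against 5442. EDC3 over EDC4 had a log2 count ratio of -0.66 ± 0.11 in controls and -0.36 ± 0.12 in knockdown libraries.

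Among the factors that bring repressed mRNA to decapping, PATL1 rose. PATL1, a scaffold that contacts the LSM ring, DCP2 and DDX6, was at 56.9, 58.6 and 59.1 CPM in controls and at 65.6, 66.6 and 66.2 CPM in knockdown libraries. All 3 knockdown libraries were above all controls. Its mean rose 1.14-fold, from 58.2 ± 1.15 to 66.1 ± 0.493 CPM (log2 fold change 0.18, SE 0.033, adjusted p = 2.05e-05), and the call held in all 19 settings (0.17 to 0.29). PATL1 (ENSG00000166889.14) lies at chr11:59636716-59668980 on the minus strand and shares 64 exon bases with an antisense gene that had 86 counts against 12009. Its paralog PATL2 had 0.0749 CPM in controls and too few counts for a test.

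LSM14A, a processing body assembly factor that binds DDX6 (ENSG00000257103.9, chr19:34172504-34229515, plus strand), fell slightly. It was at 188, 184 and 188 CPM in controls and at 166, 174 and 172 CPM in knockdown libraries, without overlap. The log2 fold change was -0.13 (SE 0.025, adjusted p = 5.01e-05), a decrease of 8.53% in CPM terms. In deposited FPKM the groups overlapped, at 33.97, 33.08 and 34.07 in controls and 31.85, 33.66 and 34.32 in knockdown libraries, and the call was lost there (-0.019, adjusted p = 0.694 in limma on log2(FPKM + 0.1)) and with total-count scaling (-0.052, adjusted p = 0.086). LSM14A over PATL1 within a library, which needs no scaling, went from a log2 ratio of 1.68 ± 0.039 to 1.37 ± 0.024. The paralog LSM14B was at 31.5 ± 0.802 and 30.1 ± 1.84 CPM and was not called (-0.062, adjusted p = 0.314).

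DDX6, the helicase shared by decapping and translational repression (ENSG00000110367.13, chr11:118747766-118791149, minus strand), was at 105, 104 and 111 CPM in controls and at 101, 104 and 97.6 CPM in knockdown libraries. The highest knockdown library was just below the lowest control. The fitted fall was small (log2 fold change -0.081, SE 0.031, adjusted p = 0.0297) and its direction depended on the scale: it was -0.0041 with total-count scaling, 0.026 and 0.029 on the FPKM scales and -0.18 with an offset for gene length. DESeq2 gave -0.082 with an adjusted p of 0.0765. It was also not called when control replicate 3, knockdown replicate 1 or knockdown replicate 3 was left out (-0.052, -0.081 and -0.057, adjusted p = 0.233, 0.0646 and 0.169).

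**Figure D3:**
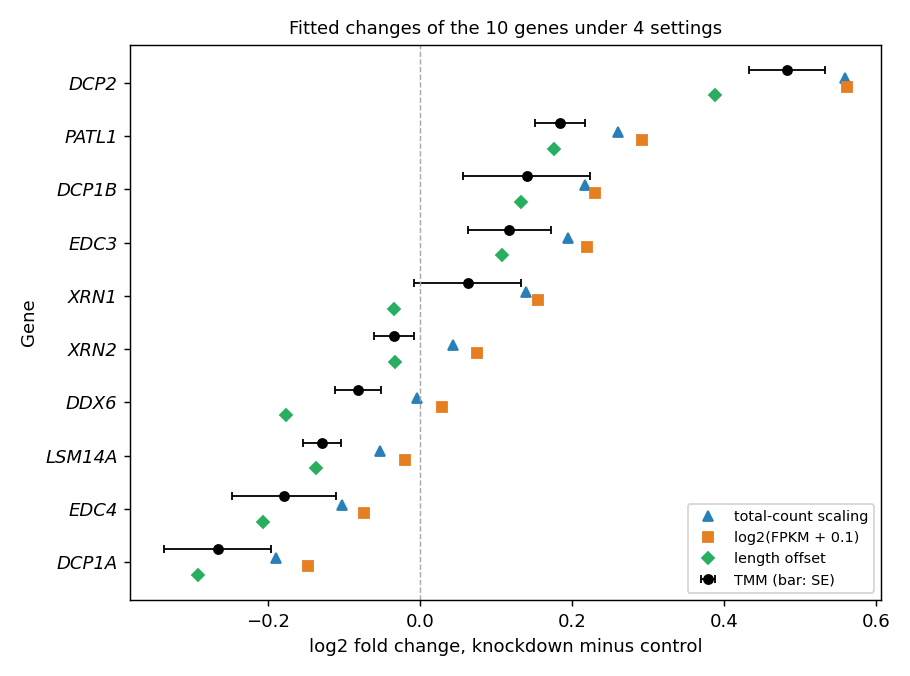
Fitted log2 fold change, knockdown minus control, of the 10 genes; black circles are TMM scaling with SE bars, and the other symbols are total-count scaling, log2(FPKM + 0.1) and an offset for gene length. DCP2, PATL1, DCP1B and EDC3 stay to the right of 0 and DCP1A, EDC4 and LSM14A to the left in these 4 settings. DDX6, XRN1 and XRN2 cross it.

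Neither exonuclease passed the test. XRN1, the cytoplasmic enzyme, was at 11.7, 13.3 and 13.6 CPM in controls and at 12.8, 14.3 and 13.2 CPM in knockdown libraries, with overlapping groups (log2 fold change 0.063, SE 0.070, adjusted p = 0.503). XRN2, the nuclear enzyme, was at 157, 149.8 and 156 CPM in controls and at 146, 154 and 151 CPM in knockdown libraries, also overlapping (-0.034, SE 0.027, adjusted p = 0.323). The sign of either value changed with the setting. XRN1 was -0.034 with the length offset and -0.0005 without control replicate 1, and XRN2 was 0.043 with total-count scaling. XRN2 over XRN1 was the 1 ratio of the 6 whose groups overlapped (3.59 ± 0.14 and 3.49 ± 0.049 on the log2 count scale, exact permutation p = 0.5). XRN2 (ENSG00000088930.8, chr20:21303304-21389827, plus strand) shares 170 exon bases with an antisense RNA that had 272 counts against 29374, and XRN1 (ENSG00000114127.11) lies at chr3:142306607-142448062 with no shared exon bases.

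Levels of the 10 genes per gene length spanned a wide range. In controls the order of mean FPKM was XRN2 (36.9 ± 1.06), LSM14A (33.7 ± 0.545), PATL1 (11.0 ± 0.231), DDX6 (7.61 ± 0.303), EDC4 (3.99 ± 0.346), EDC3 (3.03 ± 0.108), DCP1A (1.77 ± 0.0889), DCP2 (1.59 ± 0.0404), DCP1B (1.34 ± 0.0058) and XRN1 (0.877 ± 0.0681). No neighbours in this order overlapped over the 3 control libraries. The core decapping genes DCP2, DCP1A and DCP1B and the nuclease XRN1 were thus the 4 lowest, and the nuclear nuclease and LSM14A the highest. In knockdown libraries DCP2 stood above DCP1A, at 2.40 ± 0.171 FPKM against 1.59 ± 0.108. DCP1B (1.60 ± 0.115) and DCP1A could then not be told apart by their ranges, and EDC4 (3.79 ± 0.431) and EDC3 (3.55 ± 0.156) overlapped too.

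**Figure D4:**
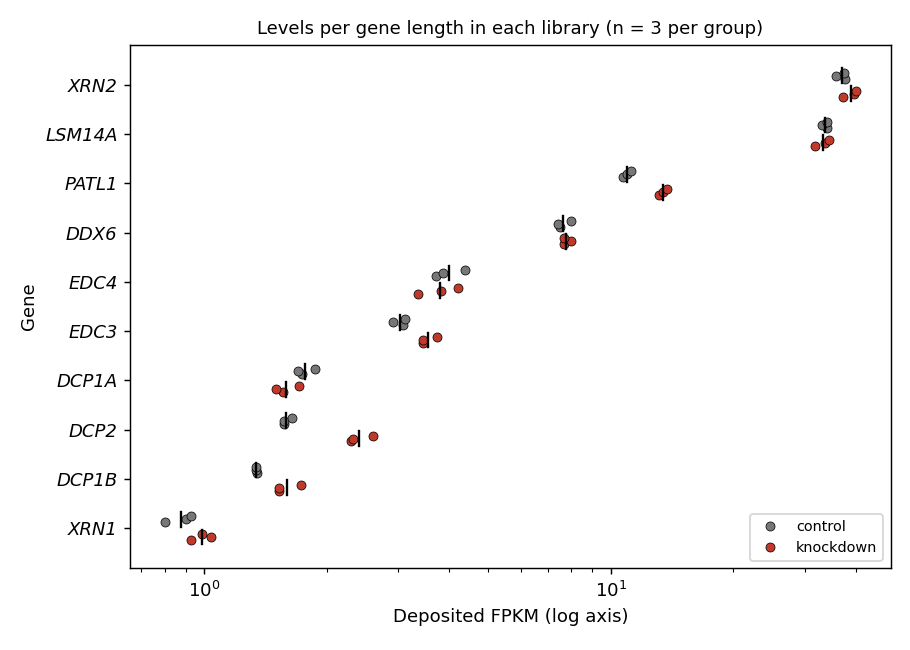
Deposited FPKM of the 10 genes in each library on a log axis; points are libraries (grey control, red knockdown) and vertical lines are group means (n = 3). DCP2 lies below DCP1A in controls (1.59 against 1.77) and above it in knockdown libraries (2.40 against 1.59).

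The other genes of the pathway were read from lists made for this tissue and pathway. LSM1 to LSM7 form the ring that binds the shortened 3′ end and, with PATL1, promotes decapping. Of these 7 genes 5 fell and 0 rose, 2 did not pass, and the median log2 fold change was -0.23, against 21.9% called lower and a median of -0.00019 over all tested genes. At an unadjusted p under 0.05 edgeR gave 5 lower and 0 higher, and DESeq2 and limma-voom each called 5 lower and 0 higher. LSM5 went from 106 ± 2.12 to 86.6 ± 2.35 CPM (-0.30, SE 0.030), LSM3 from 103 ± 2.75 to 87.4 ± 1.58 CPM (-0.24) and LSM2 from 44.6 ± 0.670 to 38.0 ± 2.35 CPM (-0.23). LSM6 changed by -0.28 and LSM4 by -0.11. LSM1, the subunit that defines the cytoplasmic ring, was not called (45.7 ± 0.627 and 43.5 ± 1.73 CPM, adjusted p = 0.143), nor was LSM7 (0.082, adjusted p = 0.164). LSM8, which takes the place of LSM1 in the nuclear ring, was at 56.3 ± 1.18 and 59.2 ± 1.86 CPM (0.074, adjusted p = 0.0881). On either FPKM scale 3 of the 7 were called lower and 1 higher. PATL1, the partner of this ring, rose while 5 of its 7 subunits fell.

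Partners of decapping in processing bodies and mRNA repression numbered 22, of which 8 rose and 3 fell while 11 did not pass (median 0.057). The called share of 50% is near the 44.1% over all tested genes. The zinc finger gene ZFP36L2, whose protein recruits decay factors to AU-rich mRNAs, rose from 76.9 ± 4.13 to 101 ± 3.81 CPM (0.39, SE 0.035). PNRC2, an adaptor between UPF1 and DCP1A, rose from 45.7 ± 2.19 to 55.0 ± 0.987 CPM (0.27, SE 0.038), and NBDY, which encodes a micropeptide that binds EDC4, rose from 48.3 ± 2.38 to 57.3 ± 1.64 CPM (0.25, SE 0.038). The 3 that fell were the Roquin paralog gene RC3H2 (-0.22), AGO3 (-0.21) and TNRC6A (-0.12), the last 2 named after their values were seen. The length offset gave 7 higher and 5 lower, total-count scaling gave 11 and 1, either FPKM scale gave 10 and 0, and without knockdown replicate 1 there were 8 and 1. Without control replicate 1 there were 6 higher and 2 lower.

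Of 9 genes for other cap-removing or related Nudix enzymes 2 rose, 2 fell and 5 were not called (median 0.023). The 44.4% called here is the share found over all tested genes (44.1%), so the count says nothing particular about these enzymes. NUDT3 rose from 42.3 ± 1.15 to 51.0 ± 1.20 CPM (0.27, SE 0.038) and NUDT16 was at 0.13 with an adjusted p of 0.0449. NUDT19 fell from 71.7 ± 2.81 to 64.6 ± 1.25 CPM (-0.15), and NUDT2 had -0.15 with an adjusted p of 0.0466. Over the alternatives 1 to 3 were higher and 0 to 3 lower. Single calls here depended on the setting: leaving out any one of control replicates 1, 2 and 3 or knockdown replicates 2 and 3 left 1 higher. DCPS, the scavenger enzyme that hydrolyses the cap after 3′ to 5′ decay, was not called (-0.14, adjusted p = 0.0587).

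Among 7 genes for partners of XRN2 and transcription termination 3 fell (median -0.040), against 21.9% of all tested genes. CDKN2AIPNL, whose protein binds XRN2, fell from 53.8 ± 0.608 to 40.6 ± 1.26 CPM (-0.41, SE 0.038). NKRF, another XRN2-binding protein gene, fell from 26.3 ± 0.536 to 23.3 ± 0.246 CPM (-0.17), and the termination factor gene TTF2 fell from 19.01 ± 0.751 to 16.1 ± 1.19 CPM (-0.24).

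The opposite route, 3′ to 5′ decay by the RNA exosome and its cytoplasmic Ski helpers, was lower in 11 of 17 genes and higher in 2, with 4 that did not pass (median -0.20). Over all tested genes 21.9% were called lower and 22.2% higher. EXOSC5, a ring subunit of the exosome, fell from 32.1 ± 1.64 to 23.1 ± 0.836 CPM (-0.47, SE 0.050). EXOSC8 (-0.28), EXOSC2 (-0.27) and EXOSC9 (-0.26) fell as well. The 2 that rose were the Ski helicase gene SKIC2 (0.19) and SKIC3 (0.19), named after their values were seen and listed in the files as SKIV2L and TTC37. On either FPKM scale 4 were lower and 3 higher, and with total-count scaling 9 and 4. No test compared these lists with the 10 genes or with each other.

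**Figure D5:**
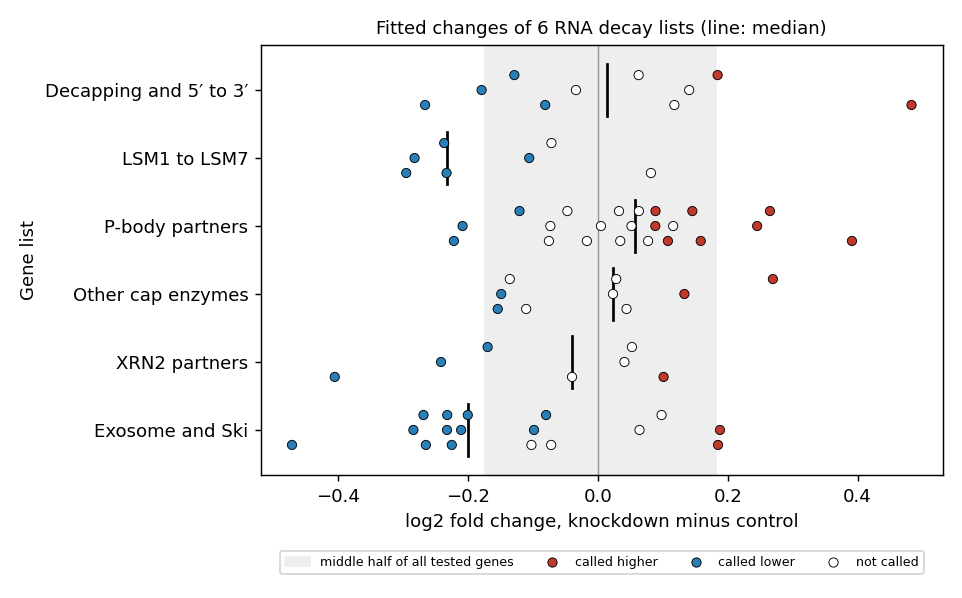
Fitted log2 fold change, knockdown minus control, of each tested gene in 6 lists; red points were called higher, blue lower and white not called, the black line is the list median and the grey band spans the interquartile range of all tested genes. The LSM1 to LSM7 and the exosome and Ski lists have medians of -0.23 and -0.20, while the 10 decapping and 5′ to 3′ decay genes lie on both sides of 0.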

How the data were processed

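RNA of 3 control and 3 STAU1 knockdown libraries was compared. The authors deposited raw read counts per gene and, separately, FPKM values rounded to 2 decimals. The submitters' processing notes name the tools HISAT2 and DESeq2 and the build GRCh38, per the labels, without a role. Libraries were directional, but which tool, annotation and strand setting made the counts is not stated in the sources read. The members and all gene lists were chosen with earlier results of these data known. Named genes were all 10 members, STAU1, both paralogs, LSM1 to LSM7 and, per other list, the 4 called genes with the smallest adjusted p; some items are not reported here.

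Genes passing filterByExpr (minimum count 10) were scaled by TMM and tested with edgeR 4.0.16 (R 4.3.3; robust quasi-likelihood, Benjamini-Hochberg over 17089 genes, threshold 0.05), after the script was tested on simulated data. CPM is TMM-scaled. SE is the log2 fold change over the root of its F statistic. Ratios were tested by exact two-sided permutation over libraries. Alternatives used limma 3.58.1 (voom, and FPKM with pseudocounts of 1 and 0.1), DESeq2 1.42.0, other scalings and filters, loess length offsets (span 0.3, on the length that counts and FPKM imply), the replicate number as a block, and each library left out. Replicates differed by more than sampling noise (chi-square per degree of freedom 1.78 to 2.88). Sequences and positions came from GENCODE 29 (GRCh38) and RefSeq promoters (GRCh38.p14), which held 9 of the 10 genes, 2 of them with several starts and not shown. Transcripts were searched with blastn 2.17.0. The member with the fewest counts, DCP1B, had 233 to 319 per library, which limits its precision.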

Additional observations from a re-analysis of the deposited data

How the results depend on the processing

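Over 19 alternatives DCP2 and PATL1 were always called higher. The members called higher were 4 in place of 2 with total-count scaling, log2(FPKM + 1) and log2(FPKM + 0.1). Those called lower, 4 in the main analysis, were 1, 0 and 0 in the same settings, 2 without a filter on low counts, and 2 to 4 with 1 library left out. Over all genes 2398, 1552 and 1554 were called lower in these 3 settings, against 3741. DDX6 turned to 0.026 and 0.029 on the FPKM scales. XRN2 turned to 0.043 with total-count scaling and to 0.074 and 0.076 on the FPKM scales. XRN1 turned to -0.034 with the length offset and -0.035 with the offset and block, and ran from -0.0005 to 0.11 with 1 library left out. The cause of these turns was not tested. With the replicate block 2 members were higher and 4 lower, as without it. Deviations of same-numbered libraries correlated at 0.037 to 0.15, against -0.11 to 0.046 for differently numbered ones. Of the 6 libraries 5 correlated best with their own number. The main fit left the number out because the labels do not state that numbers pair libraries. The 6 ratios kept their direction in deposited FPKM and with each library left out. With 3 libraries a group, changes of the size fitted for XRN1 and XRN2 lie near their standard errors.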
